A study of Mus musculus with 6 samples.

Results

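The genes described here encode the proteasome, the chambered protease that degrades ubiquitin-tagged proteins, together with its inducible immune form, its activators and its assembly factors. They were chosen by symbol: every gene of the deposited table whose mouse symbol begins with Psma to Psmg and a number, without names or biotypes of pseudogenes. The rule found 50 of the 55335 genes in the table and left out 4 pseudogenes. Of the 50, 49 encode proteins of the proteasome, its regulators or its chaperones. The other, Psmc3ip, encodes a meiotic recombination factor named for binding Psmc3. Averaged over all 6 libraries, 48 of them reached 1 FPKM and were tested.

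RNA came from RAW 264.7 cells, a mouse macrophage line labelled wild type. All cells received lipopolysaccharide (LPS), the bacterial cell wall component sensed by TLR4, at 200 ng/ml for 8 h. The 3 libraries of the LPS group had no other treatment, and the 3 of the ultrasound group also had 10 min of low-intensity pulsed ultrasound within those 8 h (50 mW/cm² at 1 MHz, 20% duty cycle, 1 kHz pulse repetition, 200 µs pulses). Both groups thus carry LPS, and no value below is a response to LPS. Nothing in the labels says that replicates were separate cultures, so the spread behind each p-value may be technical.

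The proteasome core particle is a stack of rings of alpha and beta subunits. The outer alpha rings control entry, and 3 of the beta subunits cut peptide bonds. The regulatory particle that caps the core has a base, with a ring of ATPases that unfold substrates, and a lid that holds the deubiquitinase. Interferons induce 3 replacement catalytic subunits, Psmb8 for Psmb5, Psmb9 for Psmb6 and Psmb10 for Psmb7, and the core then makes more of the peptides suited to MHC class I presentation. In macrophages this immunoproteasome is known as part of the response to interferon and microbial products. Standard subunit genes are known to be raised together by the transcription factor NRF1, encoded by Nfe2l1, when proteasome activity falls short.

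Promoter sequences are shown for the catalytic exchange pairs with a window in the RefSeq table and for Psmb3, whose log2 fold change was the highest of the core genes. Each is the 200 bases directly before the RefSeq start on build GRCm38.p6, read 5′ to 3′ on the gene's strand. Capitals mark matches on either strand to any of 5 motifs: the interferon-stimulated response element core (GAAA, any 2 bases and GAAA again), the STAT site TTCNNNGAA, the NF-kB motif, the antioxidant response element TGACNNNGC that NRF factors bind, and the CCAAT box. Psmb8 lies at chr17:34197995-34198194 (+), Psmb9 at chr17:34187331-34187530 (-), Psmb10 at chr8:105938393-105938592 (-), Psmb5 at chr14:54617996-54618195 (-), Psmb6 at chr11:70525157-70525356 (+) and Psmb3 at chr11:97703234-97703433 (+).
Psmb8: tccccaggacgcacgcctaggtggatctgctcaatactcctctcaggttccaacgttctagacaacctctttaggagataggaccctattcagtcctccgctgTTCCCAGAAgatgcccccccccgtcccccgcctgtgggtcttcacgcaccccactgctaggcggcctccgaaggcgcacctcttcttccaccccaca
Psmb9: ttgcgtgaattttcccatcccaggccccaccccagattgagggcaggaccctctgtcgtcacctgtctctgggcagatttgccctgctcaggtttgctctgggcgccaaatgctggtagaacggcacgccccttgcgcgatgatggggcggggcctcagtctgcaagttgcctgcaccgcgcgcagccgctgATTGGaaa
Psmb10: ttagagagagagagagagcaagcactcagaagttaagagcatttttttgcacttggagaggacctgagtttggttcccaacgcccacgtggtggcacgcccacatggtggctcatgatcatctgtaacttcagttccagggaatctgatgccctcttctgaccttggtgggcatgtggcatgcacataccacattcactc
Psmb5: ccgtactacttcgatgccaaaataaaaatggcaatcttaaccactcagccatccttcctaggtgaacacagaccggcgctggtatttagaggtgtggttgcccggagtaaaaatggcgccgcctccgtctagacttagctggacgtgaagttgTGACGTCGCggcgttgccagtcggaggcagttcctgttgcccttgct
Psmb6: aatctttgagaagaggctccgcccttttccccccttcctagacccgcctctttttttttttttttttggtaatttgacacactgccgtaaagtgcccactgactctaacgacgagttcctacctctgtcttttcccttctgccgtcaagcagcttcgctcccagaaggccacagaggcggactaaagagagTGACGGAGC
Psmb3: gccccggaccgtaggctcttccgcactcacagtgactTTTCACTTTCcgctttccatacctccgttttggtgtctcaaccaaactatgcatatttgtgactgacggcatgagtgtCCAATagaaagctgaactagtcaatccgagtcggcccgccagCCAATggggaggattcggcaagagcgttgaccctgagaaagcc

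In these stretches the inducible gene Psmb8 held a STAT site match and no antioxidant response element match. Its constitutive partner Psmb5 held the reverse, and Psmb6 also held an antioxidant response element match. Psmb3, a structural subunit, held the interferon element letters and also CCAAT boxes. Psmb9 held a CCAAT box, and the stretch of Psmb10 held none of the 5. The start listed for Psmb10 may be an alternative one, so its stretch may not be the promoter in use. Over windows from 250 bases before to 50 after the start, 42 of the 50 genes had an entry. The antioxidant response element letters stood in 14.3% of these genes, against 14.0% of all 27025 genes in the table. The interferon element letters stood in 11.9%, against 4.0% of all genes, and the STAT site letters in 7.1%, against 9.6%. For the CCAAT box the shares were 35.7% and 41.1%, and for the NF-kB motif 2.4% and 5.1%. The interferon element matches were in Psmb3, Psmd4, Psmd9, Psme1 and Psmg4, and in Psme1 the match began at base 10 after the start. A match to these letters is a description and not a binding site.

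The libraries had the profile of macrophages, and LPS library 2 stood apart. All 9 macrophage markers reached a mean of 1 FPKM, while 0 of 7 skeletal muscle, 0 of 5 fibroblast, 0 of 4 T cell, 0 of 3 B cell and 0 of 5 neutrophil markers did. Of 5 dendritic cell markers, 2 did (Itgax and Ccr7). The macrophage markers summed to 2420 to 2630 FPKM in the LPS libraries and 2470 to 2700 in the ultrasound libraries. On principal component 1, with 41.9% of the variance, LPS library 2 lay at 28.8 and LPS libraries 1 and 3 at 1.73 and 2.03. Ultrasound libraries 1 to 3 lay at -13.9, -0.957 and -17.7, all below the LPS libraries. Values are FPKM, a fragment density per transcript length and library total, and means carry the SD of 3 libraries (n = 3). A log2 fold change is the ultrasound minus the LPS mean of log2(FPKM + 1), with its standard error, and understates changes of low genes.

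No proteasome gene passed the test. In limma, two-sided with Benjamini-Hochberg (BH) adjustment over all 11270 tested genes, 0 of the 48 tested members had an adjusted p below 0.05, with a lowest value of 0.212 (Psmd3). Over all tested genes 0.0177% were called. With the replicate number as a block (blocked, below), limma also called 0 members, with a lowest adjusted p of 0.062. Below an unadjusted limma p of 0.05, 10 members were higher with ultrasound, where 6.18% of all tested genes were, and 2 were lower, where 9.16% were. In bulk RNA, fewer cells that express a gene and less RNA per cell cannot be told apart.

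The medians of the standard and of the inducible subunit genes lay on opposite sides of 0. The standard genes here are the 34 with Psma to Psmd symbols from the alpha and constitutive beta rings, the base and the lid. They include the base chaperones named under Psmd and leave out subunits with other symbols. Their median log2 fold change was 0.13, and 27 of them were higher with ultrasound. All 3 immunoproteasome genes were lower, with a median of -0.29. Over all tested genes the median was -0.02 and 46.1% were higher, and among the 4874 genes that averaged 10 FPKM or more the median was 0.00 and 50.2% were higher. The difference between the 2 classes was not tested.

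**Figure D1:**
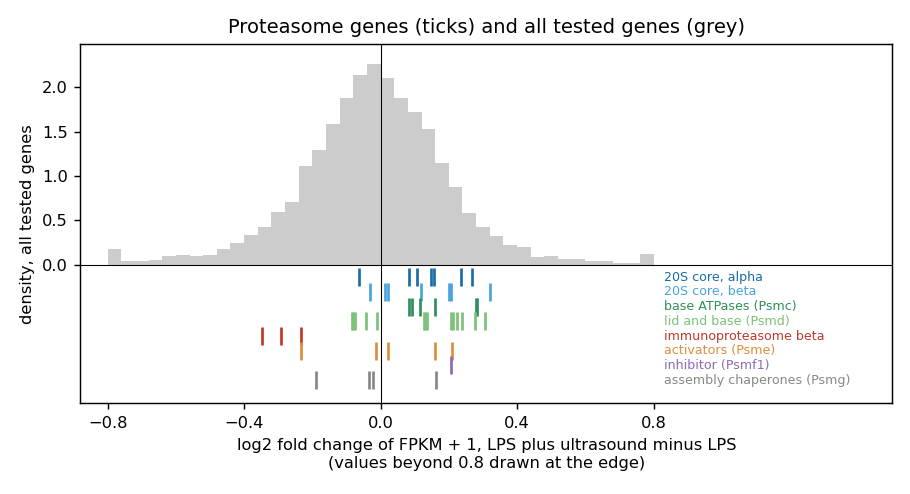
Log2 fold change of FPKM + 1, LPS plus ultrasound minus LPS (x axis), for all 11270 tested genes (grey density) and for the proteasome genes (ticks, 1 row per class). The 3 immunoproteasome ticks lie between -0.35 and -0.23, and 27 of the 34 standard subunit ticks lie above 0.

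The immunoproteasome genes were lower with ultrasound in each of the 3 same-numbered pairs of libraries, which held for 31% of all tested genes. Psmb8, the inducible chymotrypsin-like subunit gene, had 22.8, 30.4 and 21.8 FPKM in LPS libraries 1 to 3 and 18.6, 24.3 and 17.7 in ultrasound libraries 1 to 3. The groups overlapped, because ultrasound library 2 exceeded LPS libraries 1 and 3. The means were 25.0 ± 4.73 FPKM for LPS alone and 20.2 ± 3.61 after ultrasound (log2 fold change -0.29 ± 0.16, limma, BH adjusted p = 0.417, and 0.0633 blocked).

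Psmb9, which replaces Psmb6 and is the least abundant of the 3, had 7.31, 9.12 and 7.2 FPKM in the LPS libraries and 5.43, 6.49 and 5.94 in the ultrasound libraries. All ultrasound values lay below all LPS values. The log2 fold change was -0.35 ± 0.11 (limma, BH adjusted p = 0.248, and 0.071 blocked). Psmb10, which replaces Psmb7, had 16.5, 21.1 and 15.1 FPKM with LPS and 14.8, 15.7 and 13.5 with ultrasound. Its groups overlapped in 1 library, as ultrasound library 2 lay above LPS library 3, and its log2 fold change was -0.23 ± 0.13 (limma, BH adjusted p = 0.417, and 0.121 blocked).

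LPS library 2 was the highest of all 6 libraries for 3 of 3 immunoproteasome genes, as it was for 27.6% of all tested genes. Without it the log2 fold changes of Psmb8, Psmb9 and Psmb10 were -0.15, -0.25 and -0.10, and without both libraries numbered 2 they were -0.28, -0.30 and -0.15. Without ultrasound library 2 they were -0.43, -0.40 and -0.28. All 3 genes stayed lower with ultrasound under all 17 alternatives run. Of these, the filters, the moderation and the block leave a log2 fold change as it was and could not turn its sign.

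**Figure D2:**
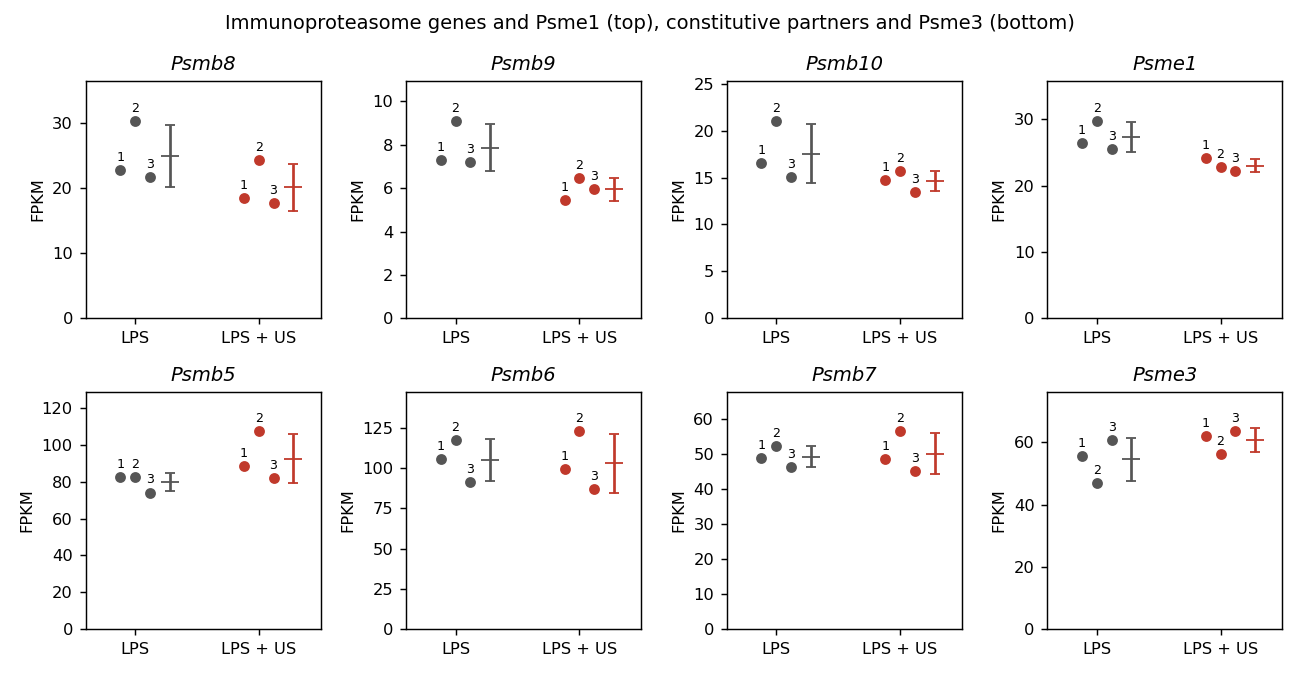
FPKM (y axes, from 0) of Psmb8, Psmb9, Psmb10 and Psme1 (top) and of Psmb5, Psmb6, Psmb7 and Psme3 (bottom) in the LPS and LPS plus ultrasound libraries. Points are libraries with their numbers, and bars are mean ± SD of 3. Psmb9 and Psme1 have separate groups, and library 2 is the highest of its group for Psmb8, Psmb9 and Psmb10 in both groups.

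The constitutive partners were more abundant than the subunits that replace them. Psmb5, the standard chymotrypsin-like subunit gene, had 82.5, 82.6 and 74.2 FPKM with LPS and 88.4, 107.5 and 82.1 with ultrasound. It was higher in 3 of 3 same-numbered pairs, with overlapping groups (log2 fold change 0.21 ± 0.11, limma, BH adjusted p = 0.405). Psmb6, the caspase-like subunit gene, had 105.7, 117.7 and 91.6 FPKM with LPS and 99.5, 123.0 and 87.0 with ultrasound. Psmb7, the trypsin-like subunit gene, had 48.8, 52.3 and 46.2 FPKM with LPS and 48.5, 56.4 and 45.2 with ultrasound. Both differed between groups by less than the spread within them, with 95% intervals of -0.37 to 0.31 for Psmb6 and -0.21 to 0.25 for Psmb7 on the log2 scale.

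Within a library, the inducible subunit can be set against its partner. The FPKM ratio of Psmb8 to Psmb5 was 0.276, 0.368 and 0.294 in the LPS libraries and 0.210, 0.226 and 0.215 in the ultrasound libraries. For Psmb9 to Psmb6 it was 0.0691, 0.0775 and 0.0786 with LPS and 0.0546, 0.0527 and 0.0683 with ultrasound. For Psmb10 to Psmb7 it was 0.338, 0.403 and 0.326 with LPS and 0.305, 0.278 and 0.299 with ultrasound. In all 3 pairs every ultrasound library lay below every LPS library, and the mean ratios differed by -30.6%, -22.0% and -17.4%. Ultrasound library 2, which had the highest Psmb8 level of its group, did not stand apart in the ratio of Psmb8 to Psmb5. LPS library 2 was the highest in that ratio and in Psmb10 to Psmb7. Without LPS library 2 the log2 changes of the ratios, in the order above, were -0.39, -0.34 and -0.18. With all libraries they were -0.52, -0.37 and -0.27. Psmb5 shares 54.1% of its transcript stretches of 50 bases with other annotated genes, mostly Gm3375, so its FPKM depends on how such reads were divided. No test was made of these ratios, whose pairs were chosen with results of these data known. They reuse the gene values above, and how often ratios of other gene pairs separate the groups was not computed.

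The 3 inducible genes made up 6.46, 8.24 and 6.87 of every 100 FPKM of beta subunit transcripts in the LPS libraries. In the ultrasound libraries they made up 5.27, 5.49 and 5.45. The groups did not overlap in this share, although they did in both sums behind it. The inducible genes summed to 46.6, 60.6 and 44.1 FPKM with LPS and 38.8, 46.5 and 37.1 with ultrasound. The constitutive beta genes summed to 674, 675 and 597.2 FPKM with LPS and 696.2, 800.2 and 643.5 with ultrasound. The share reuses the same gene values, was not tested and has no background from other genes.

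**Figure D3:**
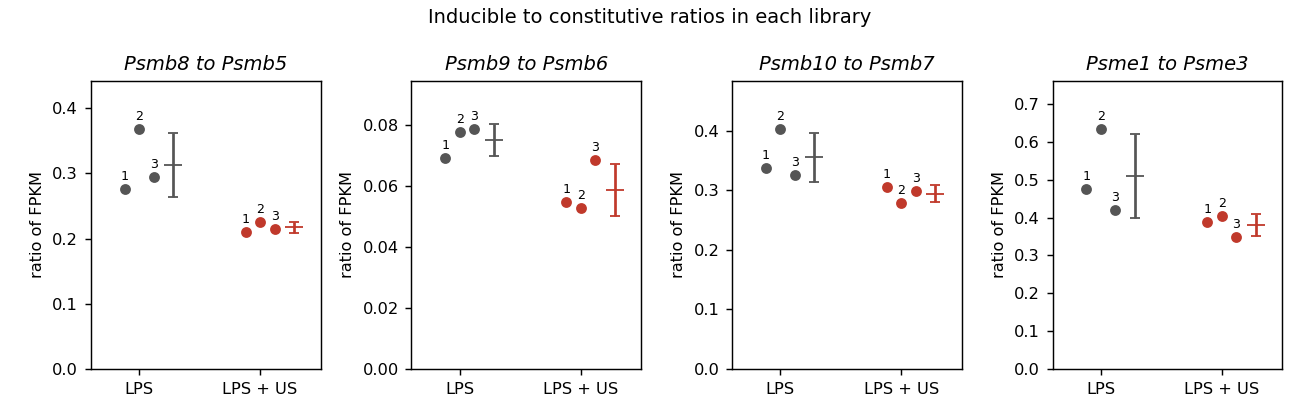
Ratio of FPKM (y axes, from 0) of each inducible gene to its constitutive partner, and of Psme1 to Psme3, in each library. Points are libraries with their numbers, and bars are mean ± SD of 3. In all 4 panels the ultrasound libraries lie below the LPS libraries.

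Of the 5 activator genes, Psme1 lay lower with ultrasound, as the immunoproteasome genes did. Psme1 and Psme2 encode the alpha and beta chains of the interferon-inducible cap that opens the core without ATP. Psme1 had 26.5, 29.8 and 25.5 FPKM with LPS and 24.1, 22.8 and 22.2 with ultrasound, with separate groups (log2 fold change -0.23 ± 0.08, limma, BH adjusted p = 0.266). Psme2 had 85.7, 103.0 and 90.0 FPKM with LPS and 91.5, 96.1 and 87.7 with ultrasound, a difference smaller than the spread within groups (95% interval -0.22 to 0.19). Psme2 shares 28.3% of its 50-base stretches with Psme2b, a near copy of it, and 69.3% of those of Psme2b occur in other genes, so neither value is certain. Psme2b lay at 40.0 ± 1.68 FPKM in the LPS and 40.7 ± 3.34 in the ultrasound group.

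The other activators lay on the opposite side. Psme4, whose product is a nuclear cap linked to acetylated histones, had 19.5, 17.3 and 17.3 FPKM with LPS and 20.2, 21.3 and 21.5 with ultrasound. Its groups were separate (log2 fold change 0.21 ± 0.08, limma, BH adjusted p = 0.284). Psme3, whose product caps nuclear proteasomes, had 55.6, 47.0 and 60.8 FPKM with LPS and 62.1, 56.4 and 63.6 with ultrasound. It was higher in 3 of 3 same-numbered pairs with overlapping groups (log2 fold change 0.16 ± 0.11, limma, BH adjusted p = 0.490), and without LPS library 2 its log2 fold change was 0.06. The ratio of Psme1 to Psme3 was 0.476, 0.634 and 0.420 with LPS and 0.388, 0.404 and 0.349 with ultrasound. Its groups did not overlap, and no background of other ratios was computed. Psme1 and Psme3 are not a catalytic exchange pair, and no ratio with Psme2, the other chain of the inducible cap, was computed.

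Most standard genes lay slightly higher with ultrasound. Of the 34 standard genes, 11 had every ultrasound library above every LPS library, where 9.8% of all tested genes did, and 0 had the reverse, where 13.4% did. In 24 of the 34 every same-numbered pair was higher with ultrasound, where 24.3% of all tested genes were. Below an unadjusted limma p of 0.05, 9 were higher and 0 lower, and with the block 16 were higher, where 12.6% of all tested genes were, and 0 lower. Of the 4874 genes that averaged 10 FPKM or more, 607 had separate groups with ultrasound higher and 585 with it lower. In that set 1457 were higher in every same-numbered pair. Below an unadjusted limma p of 0.05, 412 of them were higher, and 819 with the block. The count of 9 standard genes moved with the libraries used. It was 3 without LPS library 3, 5 without ultrasound library 2 and 1 without both libraries numbered 2. It was 12 without LPS library 1, 13 without ultrasound library 3 and 15 with median-ratio scaling. Leaving out libraries also weakens the test. Without both libraries numbered 2, 26 of the 34 genes were higher with ultrasound. Ultrasound library 2 was the highest of all 6 libraries for 25 of the 34 genes, against 19.6% of all tested genes. Without it the median of the 34 was 0.10.

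**Figure D4:**
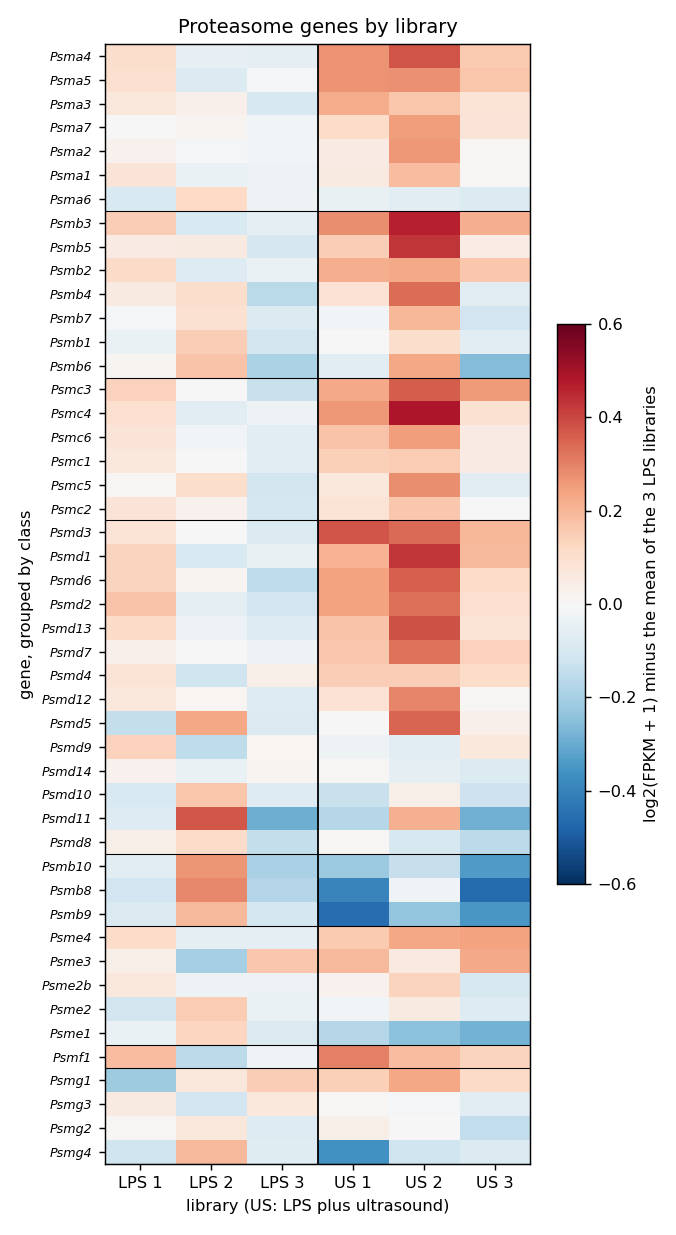
Log2(FPKM + 1) of each tested proteasome gene in each library, minus the mean of the 3 LPS libraries (colour), with genes in rows by class. Most standard subunit rows are red in the ultrasound columns, deepest in library 2. The 3 immunoproteasome rows are red in LPS library 2 and blue in the ultrasound columns, except that Psmb8 is near white in ultrasound library 2.

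In the alpha ring, 6 of 7 genes were higher with ultrasound, with a median log2 fold change of 0.15, which was 0.095 without ultrasound library 2. Psma4 had 119.9, 107.7 and 107.2 FPKM with LPS and 134.7, 145.3 and 124.5 with ultrasound, with separate groups (log2 fold change 0.27 ± 0.08, limma, BH adjusted p = 0.241). Psma5, the most abundant proteasome transcript, had 246.1, 218.0 and 228.3 FPKM with LPS and 277.8, 279.0 and 258.8 with ultrasound (log2 fold change 0.24 ± 0.07, limma, BH adjusted p = 0.241). Psma7 had 68.7, 69.4 and 67.9 FPKM with LPS and 74.3, 82.0 and 72.5 with ultrasound. Its LPS libraries differed little from each other and all lay below the ultrasound libraries. Psma1, Psma2 and Psma3 had log2 fold changes of 0.08, 0.11 and 0.16, with separate groups in Psma3. Psma6 was the member that went the other way, at 165.3 ± 12.7 FPKM in the LPS and 157.9 ± 2.07 in the ultrasound group. Since 49.1% of the 50-base stretches of Psma5 occur in other genes, mostly Gm8394, its level is uncertain.

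Among the 7 constitutive beta genes, 6 were higher, with a median log2 fold change of 0.12. Psmb3, a non-catalytic subunit gene, had 86.7, 73.4 and 75.1 FPKM with LPS and 95.2, 108.3 and 91.0 with ultrasound. Its groups were separate, and its log2 fold change of 0.32 ± 0.10 was the highest of all members (limma, BH adjusted p = 0.234). Psmb2, also non-catalytic, had 120.2, 105.4 and 108.2 FPKM with LPS and 129.2, 130.3 and 124.2 with ultrasound, with separate groups (log2 fold change 0.20 ± 0.07, limma, BH adjusted p = 0.277). Psmb1 and Psmb4 had log2 fold changes of 0.01 and 0.12 with overlapping groups. The median of this class was 0.01 without ultrasound library 2 and at most 0.21 when another single library was left out.

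All 6 ATPase genes of the base were higher, and each was higher in 3 of 3 same-numbered pairs. Psmc3 had 77.0, 69.8 and 63.5 FPKM with LPS and 82.0, 90.2 and 83.6 with ultrasound, with separate groups (log2 fold change 0.28 ± 0.09, limma, BH adjusted p = 0.241). Psmc4 had 70.7, 62.8 and 64.6 FPKM with LPS and 79.2, 92.6 and 70.4 with ultrasound, where LPS library 1 lay just above ultrasound library 3. Psmc6 had 75.5, 70.7 and 68.3 FPKM with LPS and 80.7, 85.3 and 74.1 with ultrasound, and here too the groups overlapped. The remaining ATPase genes, Psmc1, Psmc2 and Psmc5, had log2 fold changes of 0.08 to 0.11.

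Of the 14 Psmd genes, 9 were higher and 5 lower, with a median log2 fold change of 0.13, which was 0.088 without ultrasound library 2. Psmd3, a lid subunit gene, had 63.7, 59.9 and 56.6 FPKM with LPS and 78.3, 76.2 and 69.1 with ultrasound. Its groups were separate, and its p was the smallest of all members (log2 fold change 0.31 ± 0.08, limma, BH adjusted p = 0.212, and 0.062 blocked). Psmd1, the larger scaffold of the base, had 51.9, 44.1 and 45.8 FPKM with LPS and 54.6, 63.8 and 54.1 with ultrasound (log2 fold change 0.28 ± 0.10, limma, BH adjusted p = 0.263). Psmd7, the lid partner of the deubiquitinase, had 70.8, 69.1 and 67.9 FPKM with LPS and 77.7, 86.9 and 76.3 with ultrasound. All 3 had separate groups.

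Members of the same subcomplex did not all share that direction. The other base scaffold gene, Psmd2, and the ubiquitin receptor gene Psmd4 had log2 fold changes of 0.22 and 0.14. The deubiquitinase gene Psmd14 lay at 65.0 ± 1.58 FPKM in the LPS and 63.1 ± 2.11 in the ultrasound group. The lid genes Psmd6, Psmd12 and Psmd13 had log2 fold changes of 0.24, 0.13 and 0.21, each with overlapping groups and higher in 3 of 3 same-numbered pairs. Psmd8 and Psmd11, also lid genes, had log2 fold changes of -0.08 and -0.08. Psmd5, Psmd9 and Psmd10, which encode chaperones of base assembly and not subunits of the finished particle, had log2 fold changes of 0.13, -0.01 and -0.07. Psmd11 ran from 23.9 to 38.5 FPKM among the LPS libraries.

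**Figure D5:**
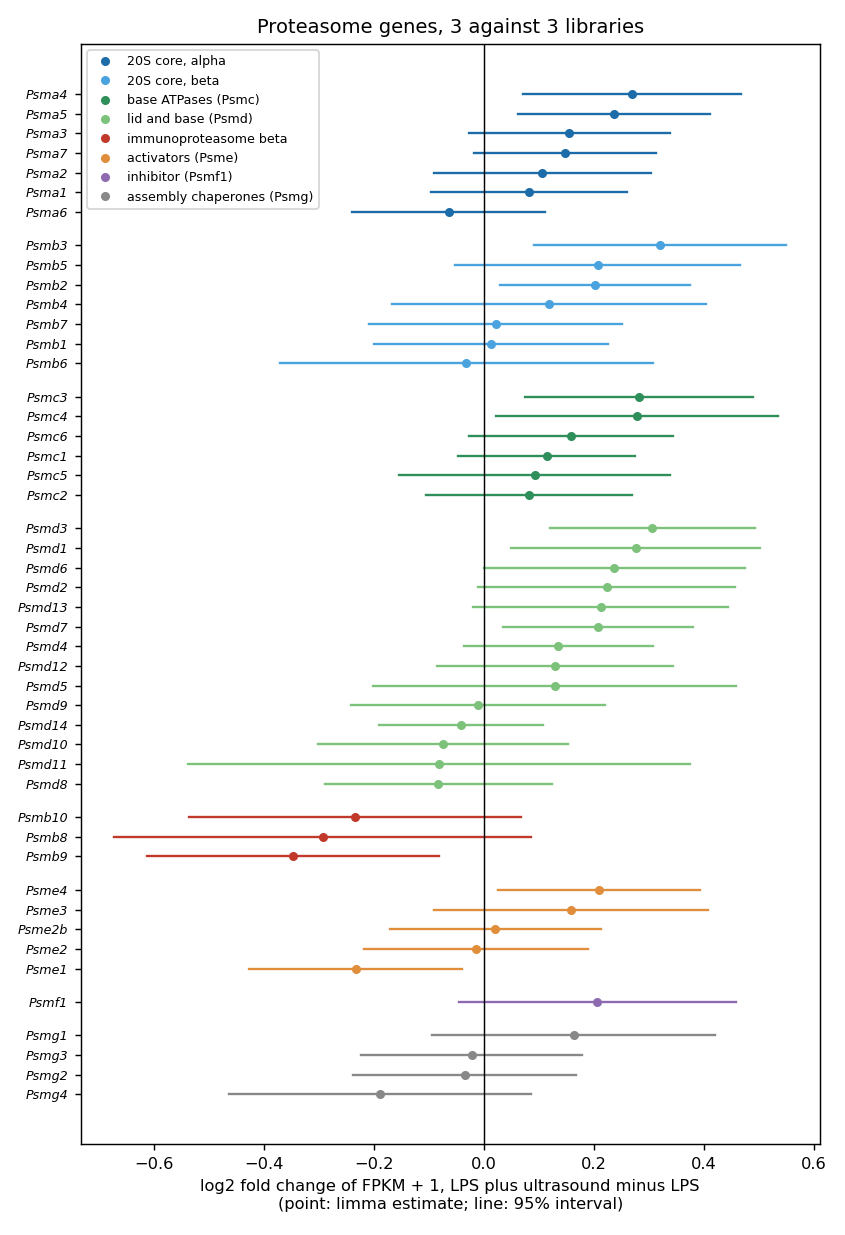
Log2 fold change of FPKM + 1, LPS plus ultrasound minus LPS (x axis), for the 47 tested genes of the proteasome, its regulators and its chaperones (rows, coloured by class). Points are limma estimates from 3 against 3 libraries and lines are 95% intervals not adjusted for the number of genes. Estimates run from -0.35 (Psmb9) to 0.32 (Psmb3).

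The inhibitor gene lay higher with ultrasound and the assembly chaperone genes lay on both sides of 0. Psmf1, which encodes an inhibitor of the core particle, had 12.7, 9.81 and 10.8 FPKM with LPS and 13.9, 12.7 and 12.2 with ultrasound. Its groups overlapped by a narrow margin (log2 fold change 0.21 ± 0.11, limma, BH adjusted p = 0.398). Psmg1 to Psmg4 encode chaperones that build the alpha ring, and 1 of the 4 was higher. Psmg4 had 18.1, 22.7 and 18.7 FPKM with LPS and 15.1, 18.1 and 18.6 with ultrasound, lower in each same-numbered pair. Psmg1 had 8.58, 10.6 and 11.3 FPKM with LPS and 11.3, 12.1 and 11.0 with ultrasound, and its position rested on the low LPS library 1. Without that library its log2 fold change was 0.06, against 0.16 with all libraries. Psmg2 and Psmg3 had log2 fold changes of -0.03 and -0.02 with overlapping groups.

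Psma8, a testis form of an alpha subunit, was listed at 0 in all 6 libraries. Psmb11, the thymic cortex form of Psmb5, lay between 0.00455 and 0.0166 FPKM. Psmc3ip had 1.18 ± 0.257 FPKM with LPS and 1.37 ± 0.194 with ultrasound.

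Genes that act with the proteasome were read from 4 further lists, and 0 of their 37 tested members passed limma's threshold. Below an unadjusted limma p of 0.05, 3 were higher and 4 lower, shares near the 6.18% and 9.16% of all tested genes. Of the 9 tested proteasome-bound and assembly factors, 6 were higher and 3 lower, with a median log2 fold change of 0.04. Adrm1 and Sem1, subunits of the regulatory particle outside the symbol rule, had log2 fold changes of 0.04 and 0.02 with overlapping groups. Akirin2, whose product brings proteasomes into the nucleus, had 42.7, 45.2 and 41.7 FPKM with LPS and 32.8, 33.9 and 32.4 with ultrasound. Both groups were tight and separate (log2 fold change -0.38 ± 0.07, limma, BH adjusted p = 0.136, and 0.0582 blocked). Pomp, the maturation factor of the core, was separate in the other direction, with 26.3, 23.5 and 24.3 FPKM with LPS and 29.9, 28.7 and 27.3 with ultrasound. Uchl5, a proteasome-bound deubiquitinase gene, had 27.6, 27.3 and 29.5 FPKM with LPS and 26.7, 20.6 and 25.1 with ultrasound.

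In the route by which NRF1 restores proteasome levels, 4 of 6 genes were higher, with a median of 0.03. Nfe2l1 itself lay at 28.1, 23.2 and 31.4 FPKM with LPS and 26.7, 25.3 and 30.2 with ultrasound, a log2 fold change of 0.00 ± 0.12. Vcp, the ATPase that extracts NRF1 from the endoplasmic reticulum, had 132.4, 114.2 and 100.7 FPKM with LPS and 146.2, 159.4 and 136.9 with ultrasound, with separate groups (log2 fold change 0.35 ± 0.11, limma, BH adjusted p = 0.245). Ddi2, the protease that activates NRF1, and Keap1, the sensor of NRF2, had log2 fold changes of -0.06 and 0.05.

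Among 13 ubiquitin and shuttle genes, 6 were higher and 7 lower, with a median of -0.02. Ufd1, a cofactor of Vcp, had 16.6, 12.3 and 15.2 FPKM with LPS and 19.4, 19.5 and 18.1 with ultrasound, with separate groups.

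Of 9 inducers and class I partners of the immunoproteasome, 8 were lower with ultrasound, with a median log2 fold change of -0.17. Irf1, a transcription factor gene that drives immunoproteasome genes, had 8.34, 8.34 and 7.17 FPKM with LPS and 4.59, 6.73 and 5.97 with ultrasound, with separate groups (log2 fold change -0.41 ± 0.13, limma, BH adjusted p = 0.248). Tap1, the peptide transporter gene that neighbours Psmb9, had 24.7, 28.7 and 24.1 FPKM with LPS and 20.9, 22.3 and 20.3 with ultrasound, also separate (log2 fold change -0.27 ± 0.09, limma, BH adjusted p = 0.248). Irf8 had 2.54, 4.19 and 4.91 FPKM with LPS and 1.38, 3.04 and 1.46 with ultrasound. The other transporter gene, Tap2, and B2m, the MHC class I light chain gene, had log2 fold changes of -0.02 and -0.02. A link between these genes and the immunoproteasome genes was not tested.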

How the data were processed

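Paired-end poly(A) RNA libraries were read on a NovaSeq, per the labels' protocols. The deposited values are FPKM computed by the authors. Their aligner, quantifier, annotation and mouse build: not given in the sources used here. Although the submitters' processing notes name mRatBN7.2, a rat build, and the extraction text rat muscle, every identifier is a mouse one. Symbols came from GENCODE M21 (55154 of 55335 identifiers matched). Columns were matched to libraries by initial and number. Deposited columns not used numbered 0.

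The table holds no counts, so depth is not known. Steps of low FPKM times transcript length correspond to library totals of 25300000 to 29300000 if a step is a single fragment, but 26.5% to 28.8% of low values lay within 0.05 of whole steps, so no counts were recovered. FPKM sums were 278871 to 292200.

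The 11270 genes averaging 1 FPKM or more entered limma (3.58.1, R 4.3.3) as log2(FPKM + 1), with trend and robust moderation, two-sided, Benjamini-Hochberg adjusted over all of them at 0.05. The titles number the libraries and state no pairing. Correlations of deviations between same-numbered libraries, across genes, were 0.177, 0.442 and 0.409, and between differently numbered ones -0.398 to 0.057. Same-numbered libraries were therefore read as pairs (the block), a choice made from these same data. Deviations within a group sum to 0 for each gene, so the same-numbered and the other correlations are not independent. The pair numbered 1, at 0.177, stood least apart from the others. Every blocked p rests on this choice. Intervals are unadjusted. In a simulation of this comparison (11270 genes, 50 changed at each size), limma recovered 58% of the 1.5-fold, 74% of the 2-fold and 100% of the 3-fold and 4-fold changes, made 15 false calls, and made 0 calls when no gene was changed. Simulated noise was independent between genes and libraries, and changed genes averaged at least 5 FPKM, so recovery in the measured data may be lower. There, mt-Nd3 (ratio of means 3.31, limma, BH adjusted p = 0.132) and mt-Co2 (2.73, limma, BH adjusted p = 0.0609) were not called.

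Members and lists were chosen with earlier results of these data known. Named with values are the exchange pairs, the activators and the 3 smallest p of each other class (inhibitor and chaperones taken as 1). Up to 3 of each further list are also named with values. Other members are named to account for all. Nfe2l1, Tap2, B2m, Adrm1 and Sem1 were added after their values were seen. Of the further lists, 1 gene, Paaf1, was not analysed here. Part of the ubiquitin and shuttle list is not reported here by name. Transcript stretches of 50 bases shared between genes were counted in GENCODE M21. Promoter windows are RefSeq's, on GRCm38.p6. Alternatives were pseudocounts, filters, scalings, moderation, sample weights, the replicate block and leaving out libraries.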

Additional observations from a re-analysis of the deposited data

How the results depend on the processing

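No member was called under any of the 17 alternatives run. Of 408 values of the 24 named members under an alternative, 396 kept their sign and 12 turned, all of them in Psmb6, Psmb7 and Psme2, whose log2 fold changes lay near 0. The 396 include the filters, the moderation and the block, which cannot turn a sign. Psmb6 turned to 0.053 without LPS replicate 2 and 0.083 without ultrasound replicate 3 (-0.17 to 0.083 over single libraries left out). Psmb7 turned to -0.0016 with quantile normalization, -0.020 without LPS replicate 3, -0.067 without ultrasound replicate 2 and -0.022 without both libraries numbered 2 (-0.067 to 0.090 over single libraries left out). Psme2 turned to 0.0053 with median-ratio scaling, 0.0018 with quantile normalization, 0.026 with sample weights, 0.062 without LPS replicate 2, 0.018 without ultrasound replicate 3 and 0.028 without both libraries numbered 2 (-0.069 to 0.062 over single libraries left out). The count over all tested genes, 2, was 1 with a minimum of 5 FPKM, 5 with equal FPKM sums, 223 with sample weights, 13 with the replicate block, 6 without both libraries numbered 2 and 2 to 8 without single libraries. The replicate block called 0 members and changed no other call of a gene named here. Of genes below an unadjusted limma p of 0.05, 40.3% were higher with ultrasound, 30.2% after equal FPKM sums and 48.7% after median-ratio scaling, while 26 to 28 of the 34 standard genes were higher under the 3 scalings. The median of the activators, 0.02, ran from -0.036 to 0.080 without single libraries. That of the assembly chaperones, -0.03, was 0.0059 with quantile normalization and -0.0011 with sample weights, and ran from -0.054 to 0.011 without single libraries. With sample weights 1 proteasome-bound factor was called. The ratio of Psmb10 to Psmb7 changed by -0.14 on the log2 scale without both libraries numbered 2, against -0.27. Without ultrasound library 2 the log2 fold change of Psmb5 was 0.096 against 0.21, that of Psmc4 was 0.18 against 0.28 and that of Psma7 was 0.095 against 0.15, and without LPS library 2 that of Psmf1 was 0.13 against 0.21, that of Psmg4 was -0.092 against -0.19 and the ratio of Psme1 to Psme3 changed by -0.24 against -0.40. For these changes the cause was not tested. The largest member changes, -0.35 and 0.32 on the log2 scale, are smaller than the 1.5-fold changes of which 58% were recovered in simulation, so a missed call does not show that values were equal.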
